A study of Mus musculus with 12 samples.

Results

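The loss of Zfx without added Myc was followed across all genes in 6 of the 12 arrays of the series, 3 labelled GFP Zfx ko and 3 labelled GFP Zfx wt, chosen by their titles. The cells were c-Kit+ progenitors from the bone marrow of Zfx wt/y CreER mice (wt) or Zfx fl/y CreER mice (ko). CreER is a Cre recombinase that acts in the nucleus after tamoxifen. Mice of both genotypes carried it and received tamoxifen at 5 mg a day by gavage for 3 days, so Cre and tamoxifen do not separate the groups. The labels do not give the promoter that drives CreER, the age of the mice, or whether marrow of several mice was pooled. Cells of both genotypes received the control retrovirus, which carries GFP and no Myc, and spent 48 hours with it. GFP+ cells were then sorted and grown for 4 more days in medium with 20% FBS and 3 cytokines (IL-3, IL-6 and the Kit ligand SCF, 10 ng/mL of each), and 200 ng of total RNA went into each labelling reaction. The other 6 arrays repeat the genotypes with a Myc virus and are used here for the spread between arrays and for a side-by-side comparison.

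Zfx is an X-linked zinc finger transcription factor that binds near the start sites of many active genes, often in CpG-rich promoters, and mostly acts as an activator. It is known for keeping blood stem cells and embryonic stem cells in a self-renewing state. Male cells have a single copy of Zfx, and the Y chromosome carries the related genes Zfy1 and Zfy2. Under these cytokines c-Kit+ marrow cells give rise to mixed myeloid cells that include neutrophil precursors, monocytes, mast cells, basophils, eosinophils and megakaryocytes. In such bulk RNA, fewer cells of a type and less RNA per cell cannot be told apart.

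Values are intensities made by RMA, on a linear scale, and 1 probe set stands for each of 19938 genes. Array medians of the 12 arrays lay between 127 and 137, and log2 values of replicates within the GFP groups correlated at 0.9879 to 0.9957 across genes. Arrays with the same replicate number deviated together (correlations of 0.40 to 0.85 over 18 pairs of groups), and a fit with that number as a block is quoted beside list counts and calls that it changes. The arrays numbered 2 stood apart from the others in both genotypes. Summed intensity of 13 dendritic cell and MHC class II genes was 6750 in wt 2 and 10806 in ko 2, against 1610 to 2483 in the other 4 arrays of the comparison. None of these 13 genes passed the threshold between genotypes, and their median log2 difference was 0.06. Defining genes of myeloid progenitors were bright in all 6 arrays, with Mpo at 11150 to 14610, Elane at 12620 to 17320 and Kit at 855.5 to 1582.

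The Zfx probe set was not lower in the arrays labelled ko. Its intensity was 862.1, 987.4 and 989.2 in wt and 995.7, 971.7 and 1094 in ko, a log2 difference of 0.11 ± 0.07 (SE; limma adjusted p = 0.619). Which part of the transcript the probe set covers is not given in the sources used here, so a deletion of some exons would be missed if the probes lie outside it, and the genotypes rest on the labels. The Y-linked relatives were dim in every array, with Zfy1 at 34.23 to 37.5 and Zfy2 at 26.84 to 29.38, and neither passed the threshold. Among 20 genes next to Zfx on the X chromosome, 10 on each side, 0 passed the threshold with limma or with the block. An unadjusted limma p under 0.05 was seen in 1 of them (lowest adjusted p 0.209), and in 2913 of all 19938 genes. Of all genes 4.11% passed with limma (1.35% of those on X) and 12.2% with the block. With only 20 genes, 0 calls do not set this stretch apart from those shares. The Myc gene itself was read at 3146, 2787 and 3108 in wt and 2841, 2551 and 2712 in ko, a log2 difference of -0.16 with an adjusted p of 0.367. With the replicate block its adjusted p was 0.0395, and it was lower in ko in each pair of equal numbers.

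Cells labelled Zfx ko differed from wt more often by lower than by higher expression. The largest falls were in Prss34, a protease of basophils and mast cells, in Terc, the RNA template of telomerase, and in Cibar1, Phf2 and Msantd3, all more than 5-fold. The largest rise was in Npy, the gene of neuropeptide Y, at 4.63-fold. Falls reached into histone-modifying enzymes, Hox genes and a few metabolic genes, while rises included megakaryocyte, interferon-response and neutrophil collagenase genes. Genes for cytosolic ribosomes and for ribosome assembly gave no call.

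Of 19938 genes, limma called 819 (4.11%) at an adjusted p under 0.05, 586 lower in ko (2.94%) and 233 higher (1.17%), so that 71.6% of the called genes were lower. The median log2 difference over all genes was -0.01 and 47.7% of all genes were higher in ko. Falls had a median of 1.45-fold and rises of 1.5-fold. Of the falls 85 were at least 2-fold and 11 at least 4-fold, and of the rises 46 were at least 2-fold and 1 at least 4-fold. In all 819 genes the 3 ko arrays lay wholly on 1 side of the 3 wt arrays, which was so for 17.9% of all genes tested, 10.5% lower and 7.44% higher. The median of the falls was -0.58, -0.53 and -0.49 (log2) in pairs 1, 2 and 3, and that of the rises 0.51, 0.54 and 0.67.

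With the replicate number as a block limma called 2440 genes (12.2%), 1420 lower (7.12%) and 1020 higher (5.12%), and all 819 genes were among them. The share of falls among called genes was then 58.2%. Without the array GFP wt 3 the count was 410, without GFP wt 1 it was 491, without GFP ko 3 it was 524 and without GFP ko 2 it was 533. Most calls lay among brighter genes. With genes split into 4 equal bins by mean intensity, 4.65% fell and 1.02% rose in the brightest bin, 6.22% fell and 2.39% rose in the next, and in the dimmest bin 4 genes fell and 7 rose.

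**Figure D1:**
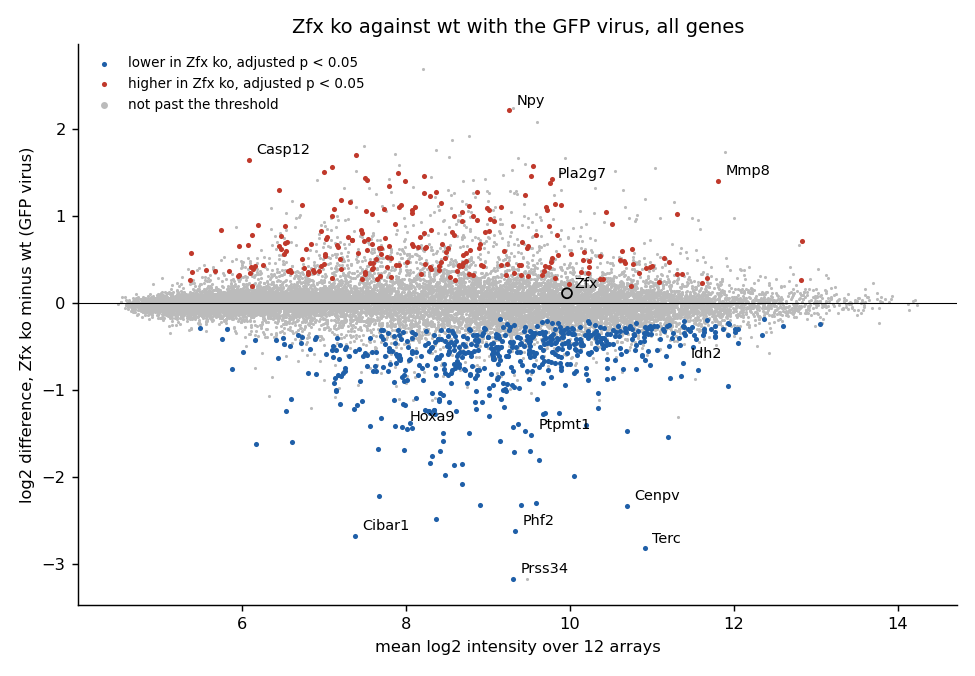
Log2 difference between Zfx ko and wt with the GFP virus (vertical axis) against mean log2 intensity over 12 arrays (horizontal axis), 1 point per gene for 19938 genes. Blue points are the 586 genes that fell and red points the 233 that rose at a limma adjusted p under 0.05, grey points are the rest, and the ring marks Zfx at 0.11.

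The 15 largest falls ranged from 3.60-fold to 8.98-fold, each with an adjusted p of at most 0.000635 by limma. These 15 falls and the 15 rises below were taken only from called genes whose arrays did not overlap between genotypes. Their lack of overlap was thus set by the choice. Predicted genes, clone names, microRNA, small nucleolar RNA and smell receptor genes were left out of both sets. Prss34 was read at 2170, 3062 and 2397 in wt and 407.6, 215.3 and 251 in ko, 8.98-fold lower (95% interval 5.38 to 15; adjusted p = 0.000525). The brightest ko array lay below the dimmest wt array by a wide margin. Terc, which the reverse transcriptase of telomerase copies onto chromosome ends, was read at 3499, 4480 and 4410 in wt and 436.8, 739.1 and 610.5 in ko. It was 7.05-fold lower (4.82 to 10.3; adjusted p = 0.00021), and it was the 1 gene called among 11 measured genes of telomerase and telomere proteins, with Terc included, whose median log2 difference was 0.00 (with the block 1 more gene rose).

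Genes that act on chromatin stood among these falls. Phf2, a histone lysine demethylase of the JmjC family, was read at 1766, 1615 and 1857 in wt and 337.1, 257.7 and 264.3 in ko, 6.13-fold lower (5.21 to 7.22; adjusted p = 2.79e-06). Zmynd11, which binds methylated histone tails at transcribed genes, was read at 1293, 1168 and 1255 in wt and 225.8, 245.1 and 271.2 in ko, a fall of 5.02-fold (3.40 to 7.41). Cenpv, which encodes centromere protein V, was read at 2361, 2530 and 2512 in wt and 417, 592.1 and 480.3 in ko, also a fall of 5.02-fold (4.19 to 6.02). In each of the 3 genes the arrays of a genotype lay close together and the genotypes did not overlap.

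Genes of membrane traffic and signalling were among them too. Cibar1, a BAR domain gene linked to cilia, was read at 382.1, 430.5 and 421.6 in wt and 63.68, 60.52 and 68.86 in ko, 6.39-fold lower (4.96 to 8.24; adjusted p = 2.23e-05). Smo, the membrane protein that passes on the Hedgehog signal, was read at 686.5, 534.6 and 724.7 in wt and 198.9, 141.9 and 156 in ko, 3.92-fold lower (2.95 to 5.22; adjusted p = 0.000324). The ko values of Cibar1 were near the dim end of the array, and in both genes the genotypes did not overlap. Ptpn9, a tyrosine phosphatase gene, was 5.00-fold lower, and Cltb, a light chain of clathrin, was 3.64-fold lower.

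The remaining large falls had varied roles. Dis3l, an exoribonuclease of the cytoplasmic RNA exosome, was read at 437.3, 551.2 and 393.8 in wt and 105.3, 92.32 and 97.84 in ko, 4.64-fold lower (3.93 to 5.47; adjusted p = 4.5e-06). Retsat, which saturates retinol, was read at 481, 559.6 and 528.8 in wt and 136.2, 141.3 and 158.5 in ko, 3.60-fold lower (3.14 to 4.13; adjusted p = 4.5e-06). Msantd3, Lrrc41, Zc3h7b and Npepl1 were 5.60-fold, 4.94-fold, 4.23-fold and 3.98-fold lower. All 15 genes kept an adjusted p under 0.05 when each of the 12 arrays was left out in turn.

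**Figure D2:**
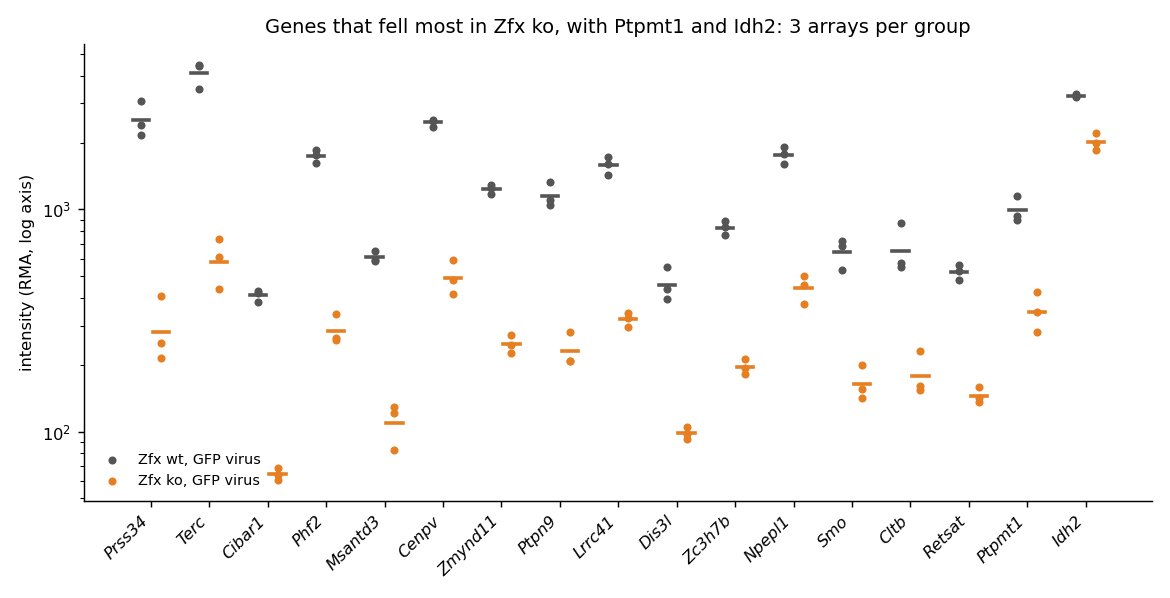
Intensity of the 15 largest falls and of Ptpmt1 and Idh2 in the 3 wt arrays (grey) and the 3 ko arrays (orange) with the GFP virus, on a log axis. Points are arrays and bars are means of log2 values. In all 17 genes every ko array lies below every wt array, which the choice of the 15 largest falls required.

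Idh2 and Ptpmt1 are genes proposed as Zfx targets, and both fell. Idh2, the mitochondrial isocitrate dehydrogenase that uses NADP, was read at 3233, 3195 and 3312 in wt and 1848, 1990 and 2199 in ko, 1.62-fold lower (1.44 to 1.82; limma adjusted p = 0.000775). Ptpmt1, a mitochondrial phosphatase needed to make cardiolipin, was read at 895.6, 1155 and 936 in wt and 282.2, 423.4 and 346.9 in ko, 2.86-fold lower (2.28 to 3.58; adjusted p = 0.000371). The genotypes did not overlap in either gene. Both genes had been picked in earlier work with these data known, so they are no independent sample of the falls. Idh2 was the 1 gene called of 20 citrate cycle genes (median log2 difference -0.09; 4 fell with the block), and Ptpmt1 the 1 gene called of 12 cardiolipin genes (median -0.01; 2 fell with the block).

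The promoter windows of the falls show what these genes have in front of their start sites. Zfx and its human counterpart are known for a motif with the core AGGCCT, which reads the same on both strands. The core was searched in RefSeq promoter sequences of build GRCm38.p6, 250 bases before to 50 bases after each start, for the 15614 genes that matched by symbol. Windows of 6 of the largest falls that hold it, with the core in capitals, and of Abca2, whose window holds the longer form AGGCCTAG, are given 5′ to 3′ on the strand of the gene.
Msantd3, chr4:48539854-48539919, plus strand: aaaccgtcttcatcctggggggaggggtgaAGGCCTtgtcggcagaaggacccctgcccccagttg
Cenpv, chr11:62539466-62539511, minus strand: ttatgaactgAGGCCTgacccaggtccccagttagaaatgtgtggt
Dis3l, chr9:64340774-64340833, minus strand: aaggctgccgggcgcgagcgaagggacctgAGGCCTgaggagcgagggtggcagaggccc
Pkd1, chr17:24549906-24549949, plus strand: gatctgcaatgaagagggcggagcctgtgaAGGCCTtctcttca
Phlpp2, chr8:109868508-109868573, plus strand: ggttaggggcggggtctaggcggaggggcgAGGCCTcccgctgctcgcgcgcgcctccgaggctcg
Mcpt8, chr14:56085402-56085447, minus strand: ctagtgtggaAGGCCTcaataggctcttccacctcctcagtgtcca
Abca2, chr2:25428467-25428532, plus strand: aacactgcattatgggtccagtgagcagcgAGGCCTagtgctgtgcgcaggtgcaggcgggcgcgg

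All 7 stretches lie upstream of the start, with the core beginning 14 bases before it in Pkd1, 30 in Dis3l, 62 in Msantd3, 65 in Phlpp2, 102 in Abca2 and 240 in Cenpv and Mcpt8. The log2 differences between ko and wt were -1.69 for Pkd1, the polycystin gene, -1.68 for Phlpp2, a phosphatase that acts on Akt, and -1.26 for Abca2, a lipid transporter.

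Most genes that fell did not have the core in this window. It was found in 60 of 495 falls with a window, 12.1% (95% exact binomial interval 9.38 to 15.3), in 9.42% of 191 rises and in 10.1% of all 15614 genes. Of the 74 falls of at least 2-fold with a window 12 held it, 16.2% (8.67 to 26.6). The interval for all falls covers the share among all genes, and so does that for the larger falls. With the bases before the start alone the shares were 9.09% of all falls, 16.2% of falls of at least 2-fold (8.67 to 26.6) and 8.72% of all genes, and both intervals cover the share among all genes (6.71 to 12 for all falls). AGGCCTAG, which contains the core and was searched on both strands, was in 1.62% of falls, 1.05% of rises and 0.909% of all genes.

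The windows of the falls were rich in G, C and CpG. The median G and C content was 63.3% in falls, 57.3% in rises, 57.7% in all genes and 61.3% in genes above the median intensity. The median number of CpG was 24 in falls, 15 in rises, 15 in all genes and 21 in genes above the median intensity. Of 56 falls that share a head-to-head promoter with another gene, with starts within 1000 bases on opposite strands, 4 had a partner that fell and 0 a partner that rose, against 4.29% of all head-to-head partners that fell. Those 4 genes form 2 pairs, Retsat (log2 difference -1.85) with Elmod3 (-0.39), and Fto (-0.50), an RNA demethylase gene, with Rpgrip1l (-0.53), a gene of the cilium base.

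The 15 largest rises ranged from 2.54-fold to 4.63-fold, smaller than the largest falls. Npy, a peptide best known from neurons, was read at 418, 967.9 and 720.9 in wt and 2664, 2929 and 3715 in ko, 4.63-fold higher (2.94 to 7.29; limma adjusted p = 0.00229). Mmp8, the collagenase stored in neutrophil granules, was read at 2242, 2599 and 3762 in wt and 6792, 6870 and 8663 in ko, 2.64-fold higher (1.95 to 3.57; adjusted p = 0.00314). The wt arrays of Npy spread by more than 2-fold among themselves, yet the lowest ko array lay far above the highest wt array. Gstt1, a glutathione transferase, was read at 134.9, 151.7 and 141 in wt and 297.1, 391.3 and 463.6 in ko, 2.65-fold higher (2.13 to 3.30; adjusted p = 0.000428).

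Transcriptional and signalling genes also rose. Eya1, a coactivator with phosphatase activity, was read at 80.35, 80.96 and 76.5 in wt and 204.4, 269.7 and 204.8 in ko, 2.83-fold higher (2.07 to 3.88; adjusted p = 0.00261). Tshz3, a zinc finger transcription factor gene, was read at 157.2, 175.4 and 150.8 in wt and 351.7, 456.6 and 425.5 in ko, 2.54-fold higher (2.05 to 3.16; adjusted p = 0.000525). Eya1 was uniformly dim in wt, and in both genes the genotypes were well apart. Grb10, an adaptor of insulin and growth factor receptors, was read at 240.8, 318.8 and 303.9 in wt and 792.2, 791.8 and 976.8 in ko, 2.97-fold higher (1.84 to 4.79; adjusted p = 0.0191).

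The inflammatory caspase gene Casp12 was read at 44.86, 80.72 and 48.18 in wt and 111.1, 176.4 and 272.1 in ko, 3.13-fold higher (1.98 to 4.94; adjusted p = 0.0123). Pla2g7, the enzyme that breaks down platelet-activating factor, was read at 693.7, 895.2 and 865.5 in wt and 1702, 2920 and 1887 in ko, 2.59-fold higher (1.72 to 3.92; adjusted p = 0.0179). The ko arrays of both genes lay above all wt arrays but were spread among themselves. F11r, which encodes junctional adhesion molecule A, Fnbp1l, which shapes membranes with actin, and Tmem243 rose 2.74-fold, 2.70-fold and 2.68-fold. Mfsd2b, the sphingosine-1-phosphate exporter of red cells and platelets, Cmah, which hydroxylates sialic acid, Lipo3, of a lipase family with close copies, and Slc6a15, a transporter of neutral amino acids, rose 2.74-fold, 2.63-fold, 3.23-fold and 2.81-fold.

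Of the 15 largest rises 7 lost their call when a single array was left out, against 0 of the 15 largest falls. Without GFP wt 3 the adjusted p was 0.125 for Lipo3, 0.058 for Casp12, 0.181 for Slc6a15 and 0.155 for Mfsd2b, and without GFP wt 1 it was 0.0748 for Grb10, 0.0799 for Cmah and 0.0713 for Pla2g7. The other 8 of the 15 rises kept an adjusted p under 0.05 without each array in turn. With the replicate block the highest adjusted p among the 15 was 0.00586, for Mfsd2b.

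**Figure D3:**
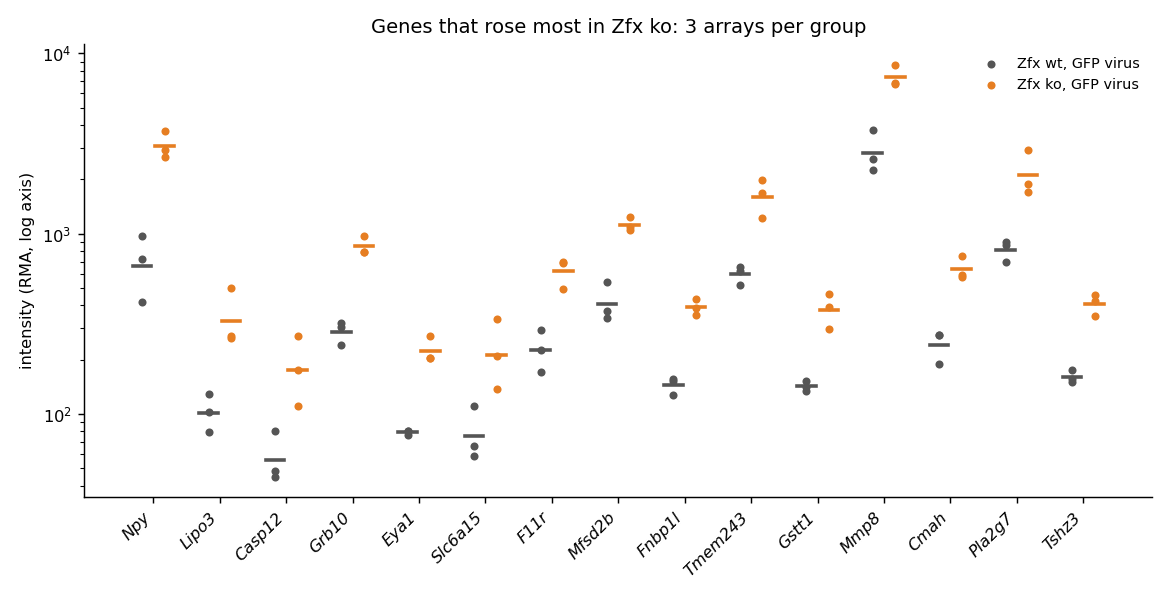
Intensity of the 15 largest rises in the 3 wt arrays (grey) and the 3 ko arrays (orange) with the GFP virus, on a log axis. Points are arrays and bars are means of log2 values. In each gene every ko array lies above every wt array, which the choice of these genes required.

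Genes were also read by 54 lists of pathways and cell types, which hold 1018 measured genes. Of these 12 rose and 29 fell, shares close to those among all genes (1.17% and 2.94%). The calls were spread over 22 lists, and 32 lists had no called gene. With the block, which called 5.12% of all genes as higher and 7.12% as lower, 9 lists had none. The lists were written with earlier results of these data known, so an excess within a list is no independent support.

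Megakaryocyte and platelet genes were the list with the highest median. All 11 measured genes were higher in every ko array than in every wt array, which held for 7.44% of all genes, and the median log2 difference was 1.40, with 1.41, 1.18 and 1.64 in pairs 1, 2 and 3. Their summed intensity was 14614, 23732 and 22663 in wt and 36234, 41177 and 47173 in ko. Limma called 2 of the 11, while 1.17% of all genes rose. Clec1b, the platelet receptor for podoplanin, was read at 60.58, 88.92 and 76.54 in wt and 113.8, 193.8 and 279.3 in ko, 2.46-fold higher (1.61 to 3.77; adjusted p = 0.0266). Treml1, a receptor stored in platelet granules, was read at 453.9, 496 and 421.5 in wt and 961.4, 792 and 1231 in ko, 2.15-fold higher (1.46 to 3.17; adjusted p = 0.0381). Without GFP wt 1 the adjusted p of Clec1b was 0.0988, and without GFP wt 3 that of Treml1 was 0.141.

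With the replicate block 9 of these 11 genes rose, all but Ppbp and Thbs1, against 5.12% of all genes. Pf4, platelet factor 4, was read at 1594, 3459 and 2443 in wt and 6610, 8445 and 8771 in ko, with an adjusted p of 0.109 by limma and 0.00214 with the block. Mmrn1, a protein of platelet granules, was read at 95.29, 328.7 and 196.7 in wt and 444.4, 798.2 and 740.1 in ko, with an adjusted p of 0.0543 and 0.000152 with the block. Wt 1 was the lowest array in both genes, and no ko array reached down to the wt arrays. Itga2b and Itgb3, the chains of the fibrinogen receptor, had log2 differences of 1.24 and 1.51 (adjusted p = 0.14 and 0.172; 0.00589 and 0.00306 with the block). Gp5, Gp9 and Vwf had log2 differences of 1.40, 1.66 and 1.47, with adjusted p of 0.0521, 0.174 and 0.14 and with the block 0.00125, 0.00291 and 0.00281.

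Of 14 erythroid genes 1 rose, Gfi1b, a repressor that red cell and megakaryocyte development share. It was read at 778.7, 1008 and 772.5 in wt and 1926, 1612 and 1723 in ko, 2.07-fold higher (1.47 to 2.91; limma adjusted p = 0.0264; 0.111 without GFP wt 3). The median of the erythroid list was 0.31, and 11 of its 14 differences were above 0.

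Proteases of mast cells and basophils had the lowest median of the cell type lists at -0.51, with -0.39, -0.36 and -0.77 in pairs 1, 2 and 3. All 12 measured genes had negative differences, 3 fell (against 2.94% of all genes) and, with the block, 5 (against 7.12%). Summed intensity was 32440 to 38974 in wt and 21845 to 28284 in ko. Ctsg, 1 of the 12, is also in the list of neutrophil primary granule genes, so this sum is not particular to mast cells and basophils. Besides Prss34 the basophil protease Mcpt8 fell. It was read at 4593, 5545 and 5411 in wt and 1806, 1402 and 2196 in ko, 2.92-fold lower (1.75 to 4.86; limma adjusted p = 0.029; 0.107 without GFP wt 3). Mcpt4, a mast cell chymase that has close relatives on chromosome 14, was dim, at 86.89, 69.46 and 132 in wt and 57.84, 53.47 and 52.63 in ko, 1.70-fold lower with an adjusted p of 0.0421 (0.125 without GFP ko 3).

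The other 9 mast cell proteases did not pass by limma. Mcpt1, Mcpt2 and Cma1, proteases of the same family, had log2 differences of -1.21, -0.89 and -0.67 (adjusted p = 0.198, 0.55 and 0.0881), and with the block Mcpt1 and Cma1 passed (0.0387 and 0.0218). Cpa3, the carboxypeptidase of mast cells, was read at 8158, 6984 and 9142 in wt and 8639, 6421 and 8363 in ko (log2 difference -0.06, adjusted p = 0.989), and the genotypes overlapped. The tryptases Tpsab1 and Tpsb2 had log2 differences of -0.28 and -0.19. Of 19 receptor and mediator genes of mast cells and basophils 0 were called (3 rose and 1 fell with the block), with a median of -0.06. Of 8 eosinophil genes 0 were called, also with the block, with a median of -0.32. The lowest eosinophil array was ko 3, where Epx, the eosinophil peroxidase, was read at 2042 against 3594 to 4924 in the other 5 arrays.

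Neutrophil and monocyte lists gave few calls. Of 7 primary granule genes 0 were called, with a median of -0.19, and the lowest was Nkg7 at 6235, 3979 and 6627 in wt and 3212, 1235 and 2685 in ko (log2 difference -1.32, adjusted p = 0.167, 0.00496 with the block). Ms4a3 had a log2 difference of -0.26 and an adjusted p of 0.0427 with the block. Mmp8 was the 1 gene called of 21 neutrophil maturation genes (2 rose with the block), and their median was -0.04. Of 23 monocyte and macrophage genes 0 were called (3 rose and 1 fell with the block), with a median of 0.08. Of 10 B lymphoid, 12 T and NK and 15 stromal and endothelial genes 0 were called, and with the block 1, a T and NK gene that rose.

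Of 24 stem and progenitor genes 3 fell, all Hox genes (against 2.94% of all genes), and 0 rose, and the median was -0.01. Hoxa9, a homeobox gene of early progenitors, was read at 432.8, 424.5 and 522.8 in wt and 202.7, 147.9 and 166.8 in ko, 2.68-fold lower (2.09 to 3.44; limma adjusted p = 0.00084). Hoxb4 was read at 125.6, 123 and 119.1 in wt and 96.5, 81.45 and 90.24 in ko, 1.37-fold lower (1.21 to 1.56; adjusted p = 0.0132; 0.0526 without GFP wt 1). Hoxa5 was dim in all arrays and 1.24-fold lower (1.15 to 1.33; adjusted p = 0.0057). Hoxa7 had a log2 difference of -0.52 and an adjusted p of 0.0866 (0.0107 with the block).

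Meis1, known as a partner of Hoxa9, was called with the block only. It was read at 302.9, 259.3 and 247.7 in wt and 528.8, 597.7 and 550.2 in ko, a log2 difference of 1.05 with an adjusted p of 0.0764 by limma and 0.0212 with the block. Slamf1, a surface marker of stem cells and of other blood cells, had a log2 difference of 1.76 (adjusted p = 0.207, 0.0021 with the block). With the block 5 genes of the list rose and 4 fell, against 5.12% and 7.12% of all genes. Kit, the receptor for SCF, had a log2 difference of -0.06 and Cd34 one of 0.53, and neither was called with or without the block.

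Among 27 histone and arginine methylation enzymes 6 fell (22.2%) and 0 rose, and the list's median was -0.07. The share of falls was 2.94% among all genes, 4.65% in the brightest intensity bin and 6.22% in the next. With the block 7 of the list fell, against 7.12% of all genes. The list was written with earlier results of these data known, so its excess is no independent support. Kdm2b, a histone demethylase that also binds unmethylated CpG, was read at 636.9, 624.9 and 564.8 in wt and 393.9, 383.7 and 389.4 in ko, 1.56-fold lower (1.40 to 1.75; limma adjusted p = 0.000775). Setd2, which methylates histones along transcribed genes, was read at 1384, 1547 and 1515 in wt and 848.1, 1050 and 1108 in ko, 1.49-fold lower (adjusted p = 0.0167; 0.0711 without GFP wt 3). The ko arrays of both genes lay below all wt arrays. Ehmt1 and Ehmt2, paired methyltransferases of silent chromatin, were 1.42-fold and 1.38-fold lower (adjusted p = 0.00802 and 0.00427), Kdm1a, a demethylase of repressor complexes, 1.38-fold lower (0.00314), and the arginine methyltransferase Carm1 had a log2 difference of -0.30.

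In the lists for G1, DNA replication and mitosis every gene that passed the threshold was lower in ko. By limma the calls were 9.52% of the G1 list, 8.33% of the DNA replication list and 3.7% of the mitosis list. Among all genes 2.94% fell by limma and 7.12% with the block. By limma 4.65% fell in the brightest intensity bin and 6.22% in the next. The share of the mitosis list was near that of all genes. Of 21 genes of G1 cyclins, kinases and inhibitors 2 fell (3 with the block). E2f1, the transcription factor that drives entry into S phase, was read at 1122, 1111 and 1066 in wt and 666.2, 691.4 and 722.4 in ko, 1.59-fold lower (1.44 to 1.75; limma adjusted p = 0.000373). Cdc25a, a phosphatase that activates cyclin-dependent kinases, was 1.29-fold lower (adjusted p = 0.0458; 0.175 without GFP wt 3). Of 36 DNA replication genes 3 fell (4 with the block) and 26 of 36 differences were below 0. Their median was -0.08, with -0.18, -0.11 and 0.02 in pairs 1, 2 and 3, so pair 3 did not share the direction. Pola2, of the polymerase that starts new strands, was 1.29-fold lower, Gins2, of the replicative helicase, 1.26-fold lower (adjusted p = 0.00318), and Mcm3, also of the helicase, 1.22-fold lower. Pola2 and Mcm3 lost their call when single arrays were left out, with adjusted p up to 0.0684 and 0.0621, and Gins2 did not. Of 27 mitosis genes Cdk1 fell, 1.23-fold (adjusted p = 0.017; 0.0784 without GFP wt 3), with 2 falls under the block, and 25 of 27 differences were below 0. Among 19 p53 target genes Ei24 was the 1 called (with the block 1 fell and 1 rose). It was read at 1422, 1643 and 1426 in wt and 678, 930.1 and 840.3 in ko, 1.85-fold lower (1.51 to 2.26; adjusted p = 0.0043).

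Genes of the type I interferon response rose in 5 of 19 cases (26.3%, against 1.17% of all genes) and fell in 0. With the block 7 rose, against 5.12% of all genes. The list's median was 0.32, with pair medians of 0.25, 0.06 and 0.38. This list too was written with earlier results of these data known. Oasl2, an antiviral gene of the oligoadenylate synthetase family, was read at 93.01, 85.71 and 86.81 in wt and 145.6, 125.5 and 137.9 in ko, 1.54-fold higher (1.38 to 1.72; limma adjusted p = 0.000817). Oas3 and Oas1a, which make the activator of RNase L, were 1.48-fold and 1.55-fold higher (adjusted p = 0.0215 and 0.0438), Usp18, a brake on interferon signalling, 1.45-fold higher (0.0214), and Rsad2, the gene of viperin, 1.24-fold higher (0.0497). Of the 5 genes Oasl2 alone kept its call without each array, and the highest adjusted p of the others was 0.0977 for Usp18, 0.0954 for Oas3, 0.148 for Oas1a and 0.162 for Rsad2. The Oas genes are close copies of each other, and how far their probes tell them apart was not tested.

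Limma called few metabolic genes, and each list given here held more calls with the block. Fasn, which builds palmitate, was read at 3776, 5117 and 4786 in wt and 1947, 2727 and 2409 in ko, 1.93-fold lower (1.52 to 2.46; limma adjusted p = 0.00702). Acly, which supplies its acetyl-CoA, was 1.19-fold lower with an adjusted p of 0.0459 that rose to 0.151 without GFP wt 1, and 5 of 14 fatty acid genes fell and 1 rose with the block. Of 17 cholesterol synthesis genes 0 were called (3 fell with the block), with a median of -0.20, 15 differences below 0 and 2 above. Of 35 respiratory chain genes Ndufa8, of complex I, was the 1 called, 1.24-fold lower (adjusted p = 0.0322; 0.104 without GFP wt 2; 3 fell with the block), and the median was 0.00. Of 63 mitochondrial ribosomal proteins 1 rose, Mrpl52 at 1.47-fold (adjusted p = 0.0376; 0.153 without GFP wt 3), and 1 fell, Mrps26 at 1.53-fold (adjusted p = 0.0407; 0.122 without GFP wt 2; 1 rose and 2 fell with the block).

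Of 16 antioxidant genes 1 was called by limma, the superoxide dismutase Sod1, at 6638, 6652 and 5970 in wt and 5449, 5259 and 5315 in ko, 1.20-fold lower (1.11 to 1.30; adjusted p = 0.0216; 0.0817 without GFP wt 1). With the block, which called 5.12% of all genes as higher, 7 of the 16 rose. Nqo1, a quinone reductase under Nrf2, was read at 302.7, 783 and 234.1 in wt and 663.8, 1845 and 617.8 in ko, with an adjusted p of 0.384 by limma and 0.00503 with the block. It was higher in ko in each pair, while array 2 of either genotype lay above the others. Hmox1, the enzyme that breaks down haem, was read at 602.5, 1414 and 367.6 in wt and 1085, 1820 and 857.6 in ko (adjusted p = 0.544, 0.025 with the block).

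Of 17 C-type lectin genes 2 rose, Clec1b and Clec2d, and 7 with the block, against 1.17% and 5.12% of all genes. Clec2d, a ligand of an NK cell receptor, was read at 508.7, 314.3 and 453.6 in wt and 973.7, 807 and 924.6 in ko, 2.16-fold higher (1.61 to 2.88; limma adjusted p = 0.00887). In the list for amino acids and the integrated stress response (21 genes) Vldlr, a lipoprotein receptor, was the 1 gene called by limma. It rose 2.17-fold (limma adjusted p = 0.0428, and 0.161 without GFP wt 3). With the block 6 genes of that list rose, against 5.12% of all genes (1.17% by limma). The nuclear pore genes Nup210 and Nup214 fell 1.23-fold and 1.21-fold (adjusted p = 0.0417 and 0.0439; 0.17 and 0.178 without GFP wt 3). With the block 4 of 25 nuclear pore and transport genes fell, against 7.12% of all genes.

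Several lists for growth and protein synthesis had no gene called by limma. Among 48 ribosome biogenesis genes 0 were called (2 fell with the block), with a median of -0.01 and differences from -0.29 to 0.21. Among 33 cytosolic ribosomal proteins 0 were called (1 rose with the block), with a median of 0.07. Lists of 24 translation factors and 26 splicing factors had 0 with or without the block. Those of 18 tRNA synthetases (1 rose and 1 fell with the block), 26 nucleotide synthesis genes (4 fell with the block), 37 proteasome genes (2 fell with the block), 21 glycolysis genes (1 rose and 4 fell with the block), 17 heat shock genes (2 fell with the block) and 17 unfolded protein response genes (1 rose with the block) had 0 called by limma. Of 12 genes of the Myc and Max network 0 were called, and with the block 1 rose and 2 fell, Myc among the falls. Of 24 immediate early genes 0 were called (5 rose and 2 fell with the block) and of 21 cytokine receptors 0 (3 rose with the block). Of 22 myeloid transcription factors 0 were called (4 rose and 1 fell with the block) and of 20 integrin and adhesion genes 0 (6 rose with the block). Among all genes 5.12% rose and 7.12% fell with the block, and each of these last lists had a larger share of rises. They too were written with earlier results of these data known.

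**Figure D4:**
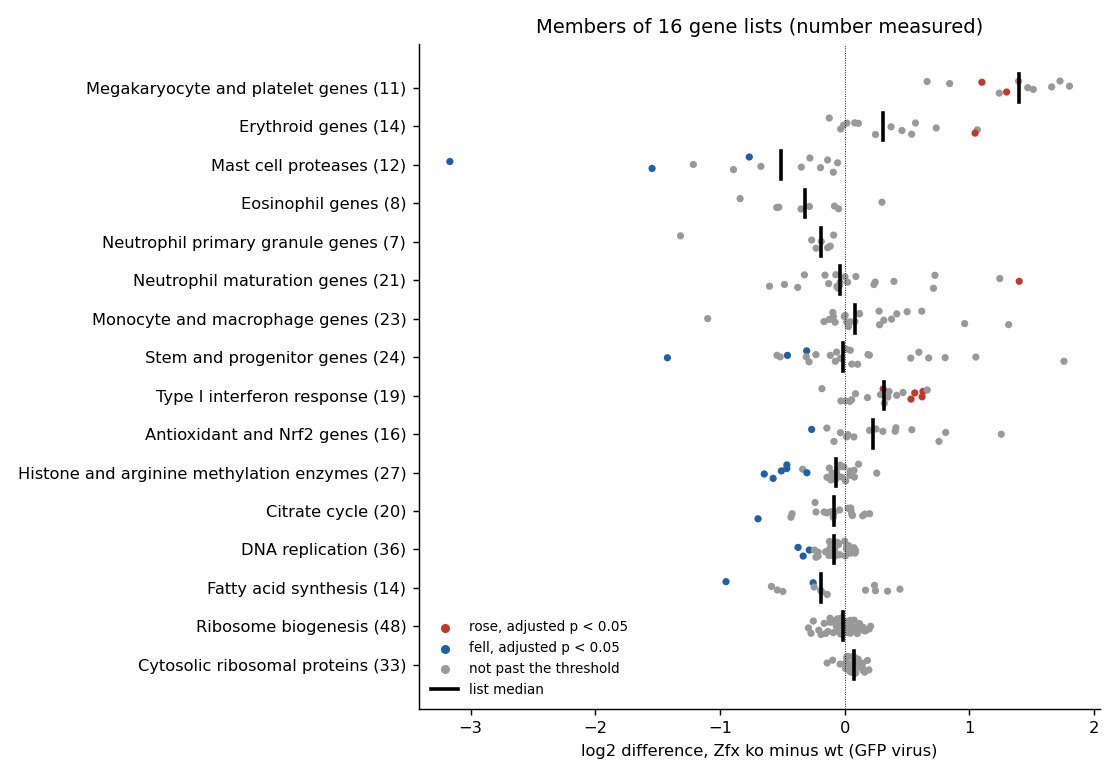
Log2 difference between Zfx ko and wt with the GFP virus for each member of 16 gene lists, 1 point per gene, with the number of measured genes in brackets and a black bar at each list's median. Red points rose and blue points fell at a limma adjusted p under 0.05. All 11 megakaryocyte genes lie above 0 (median 1.40), all 12 mast cell proteases below 0 (median -0.51), and the ribosome lists lie within -0.29 to 0.21.

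Called genes lay on every autosome and on X, with 2.94% of genes called on chromosome 1 and 5.87% on chromosome 13 as the ends of the autosomal range. On X 10 of 739 genes were called (1.35%), 9 lower and 1 higher, and 37.3% of X genes were above the median intensity. By kind of gene, 582 falls and 224 rises were protein coding genes, 3 falls and 6 rises were long noncoding RNAs of 675 measured, and 0 of 297 microRNA and 0 of 53 small nucleolar RNA genes were called.

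With the Myc virus the same genotypes can be set beside these values. Those 6 arrays are not shared with the GFP comparison, but they carry the same replicate numbers and enter the same estimate of spread. There limma called 1089 genes (5.46%), 742 lower (3.72%) and 347 higher (1.74%), and with the block 2808 (14.1%), 1601 lower (8.03%) and 1207 higher (6.05%). All 586 falls with GFP were also lower with Myc, and 464 of them passed the threshold there, 79.2% of the 586 and 62.5% of the 742. All 233 rises were also higher with Myc, and 141 passed, 60.5% of the 233 and 40.6% of the 347. The median log2 difference of the falls was -0.53 with GFP and -0.52 with Myc, and that of the rises 0.58 and 0.44. The genes were chosen for passing with GFP, which favours larger values there.

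Large falls were similar in size under both viruses. The 85 falls of at least 2-fold had medians of -1.33 with GFP and -1.37 with Myc, and 78 passed with Myc. All 15 largest falls passed with Myc by limma, where 3.72% of all genes were called as lower. Phf2 was 6.83-fold lower with Myc, Cibar1 8.88-fold, Smo 7.05-fold, Zc3h7b 6.95-fold, Terc 3.88-fold and Cenpv 2.48-fold. Idh2 was 1.79-fold and Ptpmt1 2.09-fold lower with Myc, and Hoxa9 2.58-fold.

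Some of the large rises were smaller with Myc. Of the 46 rises of at least 2-fold 33 passed with Myc, with medians of 1.17 with GFP and 1.11 with Myc, and 11 had less than a 0.5 share of their GFP difference. With the replicate block 39 of the 46 passed with Myc. Npy was 1.29-fold higher with Myc (adjusted p = 0.722), Casp12 1.03-fold (0.992) and Clec1b 1.25-fold (0.745), and none of the 3 passed with the block (0.241, 0.956 and 0.318). In the Myc arrays of both genotypes Casp12 was dim, at 40.53 to 52.32, and so was Clec1b, at 55.69 to 84.29. How far the dim signals limit these folds was not tested. Gstt1 was 1.44-fold higher (0.0593), Cmah 1.49-fold (0.373) and Tshz3 1.38-fold (0.0999), and these 3 passed with the block (0.0102, 0.0315 and 0.00458). The megakaryocyte list had a median of 1.30 with Myc and 0 calls (9 rises with the block), and the erythroid list a median of 1.07 and 7 rises (10 with the block).

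The difference between the viruses was not called for any gene by limma. The interaction, the Zfx difference with GFP minus that with Myc, had 0 genes (0.0%) past the threshold, 343 at an unadjusted p under 0.05, and a lowest adjusted p of 0.312 in Lgr4, a receptor for R-spondins. Lgr4 fell 1.48-fold with GFP (adjusted p = 0.0111; 0.0528 without GFP wt 3) and 3.08-fold with Myc. Its wt arrays were at 57.8 to 63.1 with GFP and 123.3 to 166.3 with Myc, and its ko arrays were dim under both viruses, at 40.3 to 42.11 and 43.55 to 50.68. How far the dim signals limit either fold was not tested. For Npy the interaction was 1.85 on the log2 scale, for Casp12 1.60 and for Cenpv -1.02, with adjusted p of 1 for Npy and Casp12 and 0.639 for Cenpv. With the replicate block 1 gene passed, Nck2, an adaptor of receptor signalling, with log2 differences of 0.09 with GFP and -0.71 with Myc (adjusted p = 0.0198). Without Myc ko 1 the count was 4 and without Myc wt 1 it was 1.

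**Figure D5:**
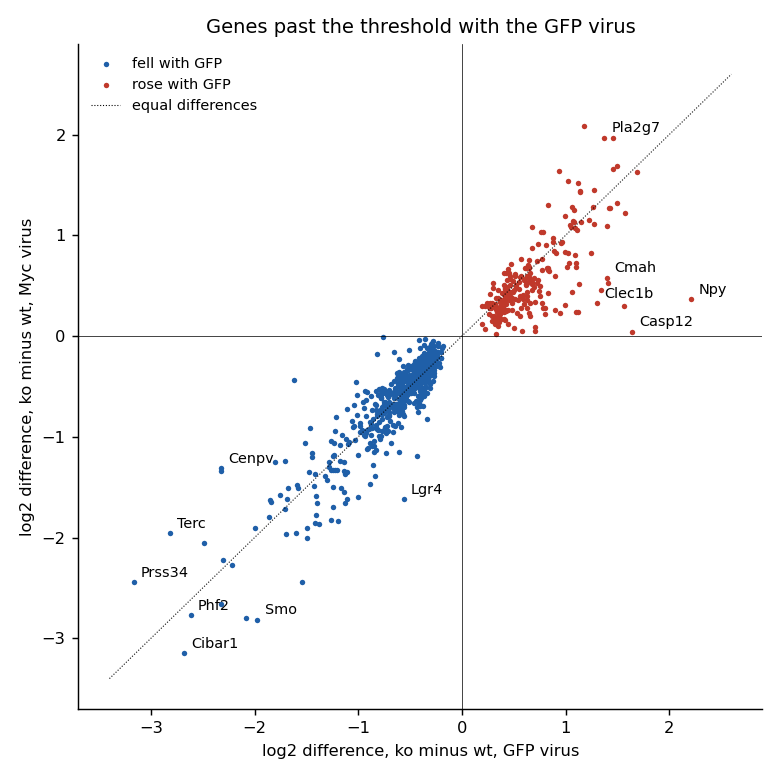
Log2 difference between Zfx ko and wt with the Myc virus (vertical axis) against that with the GFP virus (horizontal axis) for the 819 genes called with GFP, 586 falls in blue and 233 rises in red. The dotted line marks equal differences, no gene changes sign, and Npy and Casp12 lie far below the line with 2.21 and 1.65 on the horizontal axis.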

How the data were processed

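Values are the authors' deposited intensities, 1 for each probe set on each array, summarised by RMA per the submitters' processing notes. Which program ran RMA is not given in the sources used here. Intensities are linear, although the plan took them for log2, so log2 was taken, with no pseudocount and no filter. Of 35556 probe sets 21789 have 1 gene symbol, 1621 several and 12146 none listed; the brightest probe set per symbol gave 19938 genes.

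Contrasts between groups came from limma 3.58.1 under R 4.3.3 (lmFit, then eBayes, 4 group means over 12 arrays, 8 residual degrees of freedom, Benjamini-Hochberg adjusted p under 0.05), after the code was tested on simulated data. Fold intervals are unadjusted 95% intervals. Arrays of equal number deviated together (0.40 to 0.85 over 18 pairs, 0.56 to 0.85 within the GFP comparison; different numbers median -0.42), and each of 12 arrays was closest to its own number, so the numbers were read as pairing and fitted as a block. The labels do not state what equal numbers share, and p-values measure the spread between these arrays, whose number limits precision.

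Named genes are Zfx, Zfy1, Zfy2, Myc, Idh2 and Ptpmt1, and the 15 largest non-overlapping rises and falls past the threshold. Up to 5 called members per list and the 5 lowest interaction p were added. Predicted genes, clone names, microRNA, small nucleolar RNA and smell receptor genes were left out of the largest changes and of the interaction genes. Other names were chosen after their values were seen. The members and lists were chosen with earlier results of these data known. Promoters came from RefSeq (GRCm38.p6). The alternatives were the block, other normalizations, variance priors, array weights, subsets of samples or genes, a 2-fold minimum and leaving out each array.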

Additional observations from a re-analysis of the deposited data

How the results depend on the processing

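Against 819 called genes, the GFP comparison gave 2440 with the replicate block (58.2% lower), 1610 with array weights (56.6% lower, against 71.6%) and 131 with a 2-fold minimum. Leaving out each array gave 410 to 802. The Myc comparison gave 1089, 2808 with the block, 562 with only the groups compared, 192 with a 2-fold minimum, and 578 to 1098 leaving out each array. The interaction gave 0, 1 with the block, and 0 to 4 leaving out each array; it cannot be had from only the groups compared. A second quantile normalization (872), centring (724, 76.2% lower), a trended and robust prior (716), only the groups compared (556), genes above the median intensity (796) and all probe sets (823) kept the GFP count within 1.5 times. The share of falls with AGGCCT went from 12.1% to 9.09% with only the bases before the start, while that of falls of at least 2-fold stayed at 16.2%. Zfy1, uncalled, turned from 0.023 to -0.023 (log2) with array weights, and leaving out each array gave -0.01 (without GFP wt 1) to 0.058. Of 70 called genes among those named by the fixed rules, 38 kept their call without each array and 32 lost it at least once. Among the genes named by these rules the block changed the GFP call of Myc alone. Many genes named after their values were seen, such as Meis1, Pf4, Mmrn1, Slamf1 and Nqo1, were called with the block only. The cause of these shifts was not tested.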
